A study of Oryza sativa Japonica Group with 8 samples.

Results

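A set of 7 genes of sucrose breakdown and ethanol fermentation, of the 38978 gene IDs counted, was followed across 4 RNA pools of rice seedlings. Its members were chosen by ID and enzyme, with earlier results of these data known: the alcohol dehydrogenase genes ADH1 (Os11g0210300) and ADH2 (Os11g0210500), 3 pyruvate decarboxylase genes (Os05g0469600, Os03g0293100 and Os05g0469800), and the sucrose synthase genes SUS1 (Os03g0401300) and SUS2 (Os06g0194900). The IDs place the alcohol dehydrogenase genes on chromosome 11, Os03g0293100 and SUS1 on chromosome 3, the other pyruvate decarboxylase genes on chromosome 5 and SUS2 on chromosome 6. Only ADH1 and ADH2 are named in the study. The names of the other IDs came with the choice of genes and were not checked against an annotation.

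In plant cells short of oxygen or of respiratory capacity, pyruvate decarboxylase turns pyruvate into acetaldehyde, and alcohol dehydrogenase reduces acetaldehyde to ethanol while restoring the NAD+ that glycolysis needs. Sucrose synthase splits sucrose with UDP into fructose and UDP-glucose, and so feeds glycolysis and cell wall synthesis at a lower ATP cost than invertase. Rice is known for using this route when its seeds germinate and its shoots elongate under water.

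T seedlings carried an Arabidopsis DREB1a gene behind the RD29a promoter, an Arabidopsis promoter that cold switches on, together with the NPTII, GUS, GFP and pporRFP marker genes, all placed by Cre-lox recombination. N seedlings lacked DREB1a. The labels call N wild type of the cultivar Taipei 309, the methods call it the T5 founder line from which T was made, and the labels and methods do not give the same set of homozygous lines for the T pool. Aerial parts of 10-day-old seedlings were taken after 20 h of cold shock on crushed ice (T_CS, N_CS) or from room-temperature controls (T_RT, N_RT). Each group was 1 pool of 6 seedlings sequenced as 2 technical libraries, so every SD and p-value below compares pools and holds no spread between plants, and n = 2 throughout. In such bulk tissue, more cells of a type and more RNA per cell cannot be told apart. The level of DREB1a itself was not analysed here.

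The 8 libraries held 18963211 to 24405824 assigned read pairs or reads, of which the 7 genes took 0.128 to 0.151%. The libraries of a pool differed by somewhat more than sampling noise, with a chi-square per degree of freedom of 1.71 to 2.39, and were kept as separate libraries. Levels are given as CPM, counts scaled to a common library size with TMM factors,, and a gene is said to have risen or fallen where the Benjamini-Hochberg adjusted p of edgeR's quasi-likelihood test over 28218 tested genes was at most 0.01. "Called" adds the study's fold limits, a log2 fold change of at least 2 or at most -1. Scaling by total counts alone moved the median log2 fold change of all genes by -0.077 for T_CS versus N_CS, -0.072 for T_RT versus N_RT, -0.11 for N_CS versus N_RT and -0.12 for T_CS versus T_RT. With it, the share of passing genes that rose went from 55.8 to 35.8% in T_RT versus N_RT, from 48.3 to 32.9% in N_CS versus N_RT, from 50 to 39.4% in T_CS versus T_RT and nearly 10 points down in T_CS versus N_CS, from 50.7 to 41.1%. The 5 IDs listed as leaf photosynthesis markers summed to 16360 to 16480 CPM in N_RT and 25457 to 26963 CPM in the other groups, with none at 0. Behind these sums, all 5 rose in T_RT versus N_RT (9.44% of all tested genes rose there). In N_CS versus N_RT 4 rose and 1 fell (19.7 and 21.1% of all tested genes). In T_CS versus N_CS 1 rose and 3 fell (21.4 and 20.9% of all), 2 of them called lower (4.92% of all). T_CS versus T_RT also gave 1 that rose and 3 that fell (26.2 and 26.2% of all), 2 of them called lower (11.0% of all). All 5 had a cold response more positive in N (15.6% of all tested genes, median difference of the 5 -1.61), the direction of SUS1 and Os03g0293100 below. From these same libraries the study reports photosynthesis genes as lower in T_CS than in N_CS, so these IDs are not a measure of leaf content alone. Root markers (3 IDs, none at 0 in any group) summed to 5.75 to 5.88 CPM in N_CS and 7.59 to 10.8 CPM elsewhere, and seed markers (5 IDs, 1 to 3 of them at 0 in a group) to 2.76 to 5.37 CPM. The part of tissue makeup in the values below was not tested.

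The alcohol dehydrogenase genes were higher in T than in N at both temperatures, SUS1 was lower in T_CS than in every other group, and the pyruvate decarboxylase gene with nearly all the counts of its enzyme was highest in N_CS. SUS2 moved little. The plot of levels by library shows these patterns.

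**Figure D1:**
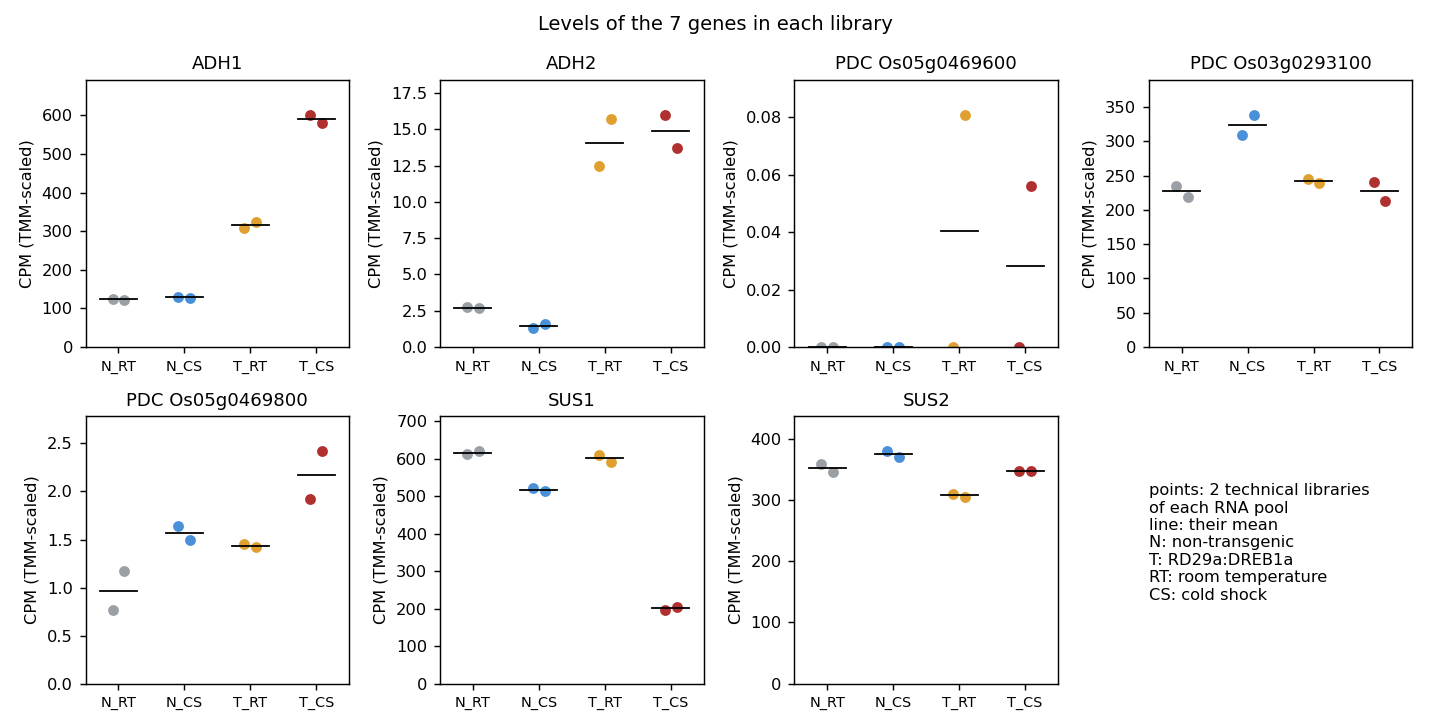
Level of each of the 7 genes in CPM (TMM-scaled; linear axes from 0, a separate scale per gene) in the 2 technical libraries (points) and their mean (line) of N_RT, N_CS, T_RT and T_CS. ADH1 reached 592 CPM in T_CS against 123 CPM in N_RT, whereas SUS1 stood at 201 CPM in T_CS against 517 to 616 CPM in the other groups.

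ADH1 encodes the main ethanol-forming alcohol dehydrogenase of rice. N_RT had 3212 and 2514 counts (124 and 122 CPM), N_CS 2950 and 2468 (130 and 127 CPM), T_RT 6784 and 7963 (307 and 322 CPM), and T_CS 11874 and 10337 (602 and 581 CPM). The T libraries all lay above the N libraries, and those of T_CS above those of T_RT, with no overlap. N_CS stood just above N_RT.

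At room temperature, ADH1 was 2.56-fold higher in T than in N (123 ± 0.852 against 315 ± 10.6 CPM, SD), a log2 fold change of 1.36 ± 0.0345 (SE; adjusted p = 5.24e-43), which was the 498th highest of the 28218. After cold shock the difference was 4.59-fold (129 ± 2.18 against 592 ± 14.5 CPM), a log2 fold change of 2.20 ± 0.0344 (adjusted p = 1.65e-56) and rank 562. Cold shock raised ADH1 in T by 0.91 on the log2 scale (1.88-fold, adjusted p = 2.00e-36). In N the log2 fold change with cold was 0.069 (95% interval -0.0043 to 0.14, adjusted p = 0.112), and with total count scaling it was -0.041. The cold responses of T and N differed by 0.84 ± 0.0485 on the log2 scale (adjusted p = 3.86e-24).

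ADH2, the neighbouring ID, encodes a second alcohol dehydrogenase and was counted far less often. N_RT held 71 and 55 counts (2.73 and 2.68 CPM), N_CS 30 and 31 (1.3269 and 1.6002 CPM), T_RT 275 and 388 (12.5 and 15.7 CPM), and T_CS 316 and 244 (16.0 and 13.7 CPM). Both T groups lay above both N groups. T_RT and T_CS overlapped, while N_CS was below N_RT in both libraries.

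The difference between T and N was larger for ADH2 than the call limit at either temperature. In T_RT versus N_RT it was 5.21-fold (log2 fold change 2.38 ± 0.157, adjusted p = 9.95e-21, rank 143 of 28218), and in T_CS versus N_CS 10.2-fold (3.35 ± 0.184, adjusted p = 1.41e-25, rank 197). Cold shock lowered ADH2 in N, with a log2 fold change of -0.89 ± 0.241 (adjusted p = 0.00136). Without N_CS replicate 1 this no longer passed (-0.75, adjusted p = 0.0358), nor without N_RT replicate 1 (-0.91, adjusted p = 0.0104). In T the change with cold was 0.076 (95% interval -0.17 to 0.32, adjusted p = 0.613), and it was negative with total count scaling and without replicate 1 of T_CS or of T_RT. The cold responses differed by 0.97 ± 0.272 on the log2 scale (adjusted p = 0.00248), which did not pass with DESeq2 (adjusted p = 0.0119) or without N_CS replicate 1 (0.0357), N_RT replicate 1 (0.0115) or T_RT replicate 1 (0.0175).

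ADH2 therefore made up a different share of alcohol dehydrogenase counts in the groups. N_RT gave 2.16 and 2.14%, N_CS 1.01 and 1.24%, T_RT 3.90 and 4.65%, and T_CS 2.59 and 2.31%. The widest exact 95% binomial interval was that of N_RT replicate 2, 1.62 to 2.78%, and such intervals cover counting error only. T_RT stood above the other groups and N_CS below them, so in both genotypes the share was lower after cold shock. In T it was ADH1 whose level changed with cold by the test, and in N ADH2. How reads that match both genes were counted is not given in the sources used here, so the split between the 2 genes is uncertain. The sum of both was 126 ± 0.890 CPM in N_RT, 130 ± 1.99 CPM in N_CS, 329 ± 12.9 CPM in T_RT and 606 ± 16.2 CPM in T_CS. It does not depend on the split if each such read was counted once, but would change if such reads were dropped or counted for both genes. ADH1 and ADH2 both stand in the study's list of genes induced by DREB1a, which was chosen on these libraries, so their rise in T_CS versus N_CS is not independent evidence.

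**Figure D2:**
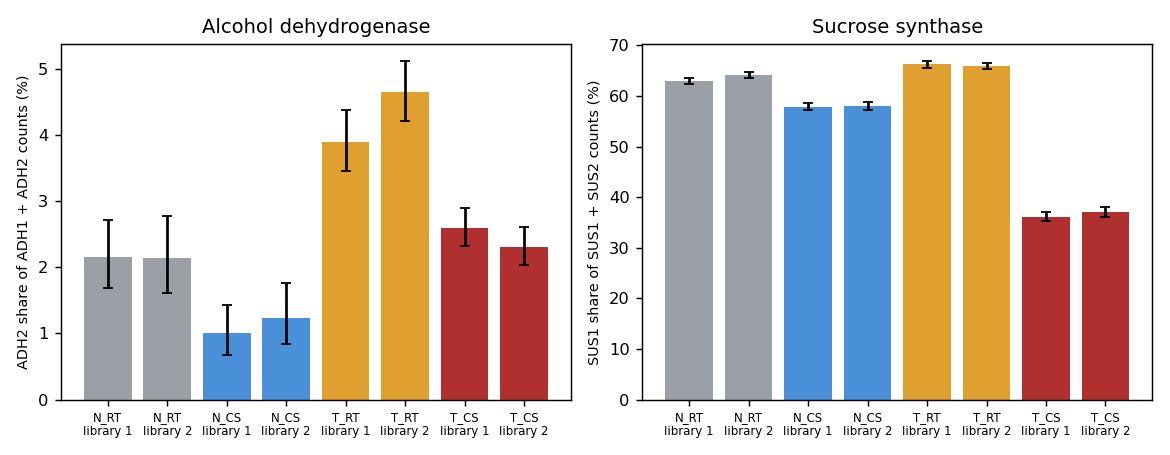
Share of ADH2 in the summed counts of ADH1 and ADH2 (left, percent) and of SUS1 in those of SUS1 and SUS2 (right, percent) in each library, with exact 95% binomial intervals for counting error; bars start at 0. The ADH2 share ran from 1.01% in N_CS to 4.65% in T_RT, and the SUS1 share was 36.2 and 37.0% in T_CS against 57.9 to 66.3% elsewhere.

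Pyruvate decarboxylase, the step before alcohol dehydrogenase, did not follow the ADH genes. Of its counts, 98.9 to 99.7% in each library fell on Os03g0293100. For this gene N_RT had 6104 and 4509 counts (235 and 219 CPM), N_CS 6986 and 6566 (309 and 339 CPM), T_RT 5394 and 5897 (244 and 239 CPM), and T_CS 4756 and 3794 (241 and 213 CPM). N_CS stood above all the other libraries, T_CS overlapped both N_RT and T_RT, and T_RT lay just above N_RT.

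Cold shock raised Os03g0293100 in N by 0.51 ± 0.0386 on the log2 scale (1.42-fold, 227 ± 10.9 to 324 ± 21.2 CPM, adjusted p = 1.33e-18). In T the log2 fold change with cold was -0.087 (242 ± 4.00 against 227 ± 19.6 CPM, adjusted p = 0.0501). This did not pass at the limit of 0.01, but passed with total count scaling (-0.20, adjusted p = 5.94e-06) and without T_CS replicate 1 (-0.18, adjusted p = 1.70e-05), and was -0.0023 without T_CS replicate 2. T_CS was lower than N_CS by a log2 fold change of -0.51 ± 0.0391 (adjusted p = 1.85e-18). At room temperature T and N differed by 0.088 (95% interval 0.011 to 0.17, adjusted p = 0.0915). The cold responses differed by -0.60 ± 0.0552 (adjusted p = 7.42e-15), in the opposite direction to those of ADH1 and ADH2.

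The other pyruvate decarboxylase genes were hardly detected. Os05g0469800 had 20 and 24 counts in N_RT (0.769 and 1.17 CPM), with 37 and 29 for N_CS (1.64 and 1.497 CPM), 32 and 35 for T_RT (1.45 and 1.42 CPM), and 38 and 43 for T_CS (1.93 and 2.42 CPM). The lowest values were in N_RT and the highest in T_CS, and no comparison of this gene passed. Its log2 fold changes were 0.59 in T_RT versus N_RT (adjusted p = 0.236), 0.46 in T_CS versus N_CS (95% interval -0.17 to 1.09, adjusted p = 0.220), 0.72 in N_CS versus N_RT (adjusted p = 0.0787) and 0.59 in T_CS versus T_RT (adjusted p = 0.0961). The upper bounds of the 95% intervals ran from 1.09 to 1.42, so the depth does not settle differences of about 2-fold. Os05g0469812, the next ID in the table, had 91.9 to 100% of its counts in each library (19 to 41 counts). Whether the 2 IDs overlap was not checked, and no source used here gives the strand setting of the count. Any reads that they share cannot be told apart.

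Os05g0469600 had 0 counts in all 4 N libraries, 0 and 2 for T_RT, and 0 and 1 for T_CS. It did not reach the minimum for a test. A total of 0 over a pool allows up to 0.0644 CPM in N_RT and 0.0715 CPM in N_CS (3 counts over both libraries), and no fold is given.

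SUS1, a sucrose synthase gene, stood apart in T_CS. N_RT counted 15919 and 12735 (612 and 620 CPM), N_CS 11795 and 9939 (522 and 513 CPM), T_RT 13461 and 14603 (610 and 591 CPM), and T_CS 3889 and 3642 (197 and 205 CPM). Both libraries of T_CS were far below every other library, N_CS lay between, and T_RT was just below N_RT.

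SUS1 fell with cold shock in both genotypes, and more so in T. In N the log2 fold change was -0.25 ± 0.0284 (616 ± 5.25 to 517 ± 6.11 CPM, adjusted p = 1.16e-11), and in T -1.58 ± 0.0305 (601 ± 13.2 to 201 ± 5.44 CPM, 2.99-fold lower, adjusted p = 2.46e-51), the 1511th lowest of the 28218. The cold responses differed by -1.33 ± 0.0415 (adjusted p = 1.36e-38). T_CS versus N_CS gave a log2 fold change of -1.36 ± 0.0306 (2.58-fold lower, adjusted p = 1.91e-47, the 1051st lowest). At room temperature T and N differed by -0.036 (95% interval -0.092 to 0.020, adjusted p = 0.404). Total count scaling gave -0.11 with an adjusted p of 0.00179 there, next to a shift of all genes of -0.072. The next ID in the table, Os03g0401333, had 96.5 to 97.3% of the counts of SUS1 in each library (3523 to 15364 counts). Their overlap was not checked either, and any reads that the 2 IDs share cannot be told apart.

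SUS2, the other sucrose synthase gene, had 9330 and 7108 counts in N_RT (359 and 346 CPM), with 8589 and 7185 for N_CS (380 and 371 CPM), 6843 and 7547 for T_RT (310 and 306 CPM), and 6861 and 6195 for T_CS (347.8 and 348.4 CPM). T_RT was lowest and N_CS highest, with N_RT and T_CS overlapping between them. Its neighbour Os06g0195025 had 94.27 to 95.03% of its counts in each library.

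The changes of SUS2 were small. T_RT was below N_RT by a log2 fold change of -0.19 ± 0.0307 (adjusted p = 4.93e-07). Cold shock raised SUS2 in T by 0.18 ± 0.0310 (adjusted p = 1.11e-06), a change that fell to 0.062 (adjusted p = 0.0776) with total count scaling. In N the change with cold was 0.091 (adjusted p = 0.00966), lost under most alternatives and negative with total count scaling, and in T_CS versus N_CS the log2 fold change was -0.11 (adjusted p = 0.00210), lost under 6 alternatives, DESeq2 among them (adjusted p = 0.0576). The cold responses differed by 0.086 (95% interval -0.0014 to 0.17, adjusted p = 0.110).

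With SUS2 nearly level, the fall of SUS1 changed which of the 2 genes held more of the counts. SUS1 took 63.0 and 64.2% of the counts of the pair in N_RT. N_CS had 57.9 and 58.0%, T_RT 66.3 and 65.9%, and T_CS 36.2 and 37.0%, where the exact 95% interval of replicate 2 ran from 36.1 to 38.0%. In T_CS alone SUS2 was counted more often than SUS1. Since gene lengths were not used, these are shares of reads and not of transcripts. Summed, SUS1 and SUS2 reached 968 ± 3.92 CPM (N_RT), 893 ± 12.5 CPM (N_CS), 909 ± 16.4 CPM (T_RT) and 549 ± 5.87 CPM (T_CS).

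Read as a group, the 7 genes did not move one way in any comparison. The percentages of all tested genes given here are the background, and the 4 pairwise comparisons share libraries, so their counts are set side by side and not compared. In T_CS versus N_CS, 2 of the 6 tested members rose (ADH1, ADH2; background 21.4%) and 3 fell (Os03g0293100, SUS1, SUS2; background 20.9%). Of these, 2 were called higher (ADH1, ADH2; background 2.39%) and 1 lower (SUS1; background 4.92%). The median log2 fold change of the members was 0.18, against -0.051 over all tested genes.

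In T_RT versus N_RT, 2 of 6 rose (ADH1, ADH2; background 9.44%) and 1 fell (SUS2; background 7.49%), with ADH2 called higher (background 0.553%) and no member called lower (background 0.454%). The median was 0.34, against 0.0011 over all. The alcohol dehydrogenase difference was thus present before any cold shock.

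In N_CS versus N_RT, 2 of 6 rose (Os03g0293100, SUS2; background 19.7%) and 2 fell (ADH2, SUS1; background 21.1%). Neither call limit was reached by a member in edgeR (background 0.890% higher and 5.84% lower), although 5 of the 6 had an unadjusted p below 0.05 and DESeq2 passed 3. In T_CS versus T_RT, 2 of 6 rose (ADH1, SUS2; background 26.2%) and 1 fell (SUS1; background 26.2%). SUS1 was the member called lower (background 11.0%), and none was called higher (background 1.84%).

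Tested as a difference of cold responses, 2 of 6 members were more positive in T (ADH1, ADH2; background 17.0%) and another 2 more positive in N (Os03g0293100, SUS1; background 15.6%). The plot of the comparisons sets these side by side.

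**Figure D3:**
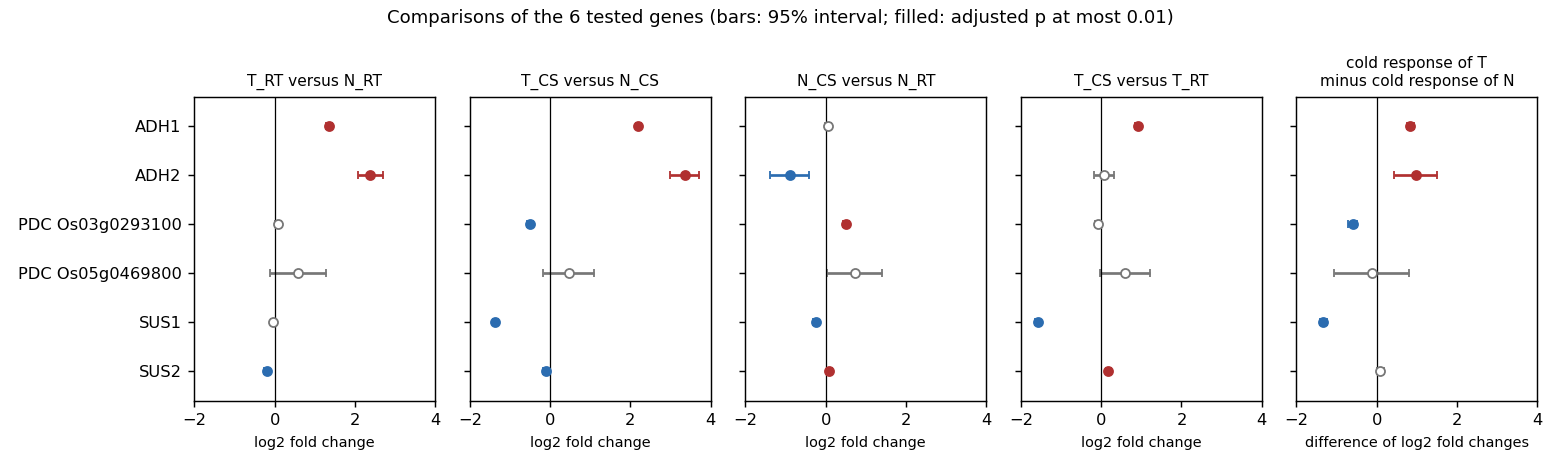
Log2 fold change (points) with its 95% interval (bars, hidden by the point where narrow) of the 6 tested genes in the 4 pairwise comparisons, with the T minus N difference of cold responses on the right; filled points had an adjusted p of at most 0.01 (edgeR), red above 0 and blue below. ADH1 and ADH2 lay at 1.36 and 2.38 in T_RT versus N_RT and at 2.20 and 3.35 in T_CS versus N_CS, while SUS1 lay at -0.036 and -1.36.

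Other steps around these enzymes were followed as lists of IDs drawn up from general knowledge. Their enzyme names were not checked against an annotation of these IDs, so they are described by counts alone, to be read against the shares of all tested genes that rose and fell: 21.4 and 20.9% for T_CS versus N_CS, 9.44 and 7.49% for T_RT versus N_RT, 19.7 and 21.1% for N_CS versus N_RT, and 26.2 and 26.2% for T_CS versus T_RT. For the difference of cold responses, 17.0% of all tested genes were more positive in T and 15.6% in N. With 2 to 8 IDs a list, nothing particular to a list is read from these counts. The 5 further IDs listed as sucrose synthases summed to 124 CPM for N_RT, 146 for N_CS, 136 for T_RT and 310 for T_CS. In T_CS versus N_CS 1 of the 5 rose, none fell (unadjusted p below 0.05 for 2 lower; DESeq2 0), and their median log2 fold change was -0.17. In T_CS versus T_RT 2 of the 5 rose, with a median of 0.34, and none fell, also with DESeq2 or at an unadjusted p below 0.05. The sum was thus highest in the group where SUS1 was lowest, through a minority of the list.

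Another 6 IDs were listed as glyceraldehyde-3-phosphate dehydrogenase and enolase, glycolytic enzymes upstream of pyruvate. In T_RT versus N_RT 5 of the 6 rose (median 0.25), and in T_CS versus N_CS 5 of the 6 fell and 1 rose (median -0.21), of which DESeq2 passed 2 as lower. Cold raised 5 of the 6 in N (median 0.44). In T it raised 3 and lowered 2 (median 0.051). The cold response was more positive in N for 4 of the 6 and more positive in T for 1 (background 15.6 and 17.0%).

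Invertases cleave sucrose by hydrolysis. Of 4 tested invertase IDs of 5 listed, 2 rose and 2 fell in T_CS versus N_CS (median 0.024), and 3 fell in T_RT versus N_RT (median -0.28). The median in T_CS versus N_CS hides 1 ID called lower, at a log2 fold change of -2.20 (background 4.92%). In T_CS versus T_RT 2 rose and 1 fell, which was called lower (background 11.0%). For sucrose-phosphate synthase, which makes the precursor of sucrose, 3 of 5 IDs rose in T_CS versus N_CS (median 0.12) and 2 of 5 in T_RT versus N_RT (median -0.086). UDP-glucose pyrophosphorylase, which handles the UDP-glucose that sucrose synthase releases, had 2 IDs. Both rose in T_RT versus N_RT (median 0.41; 1 with DESeq2) and in N_CS versus N_RT (median 0.48; 2 with DESeq2). Neither passed in T_CS versus N_CS in edgeR or DESeq2 (median -0.0022; 1 at an unadjusted p below 0.05) or in T_CS versus T_RT (median 0.066; 0 at an unadjusted p below 0.05), and 1 had a cold response more positive in N.

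Hexokinases phosphorylate the sugars set free. Of 8 tested IDs of 10 listed, 1 rose and 1 fell in T_CS versus N_CS (median 0.14), and none passed in T_RT versus N_RT in edgeR or DESeq2, with 1 at an unadjusted p below 0.05. The 3 further IDs of fermentation and acetaldehyde oxidation gave 1 rise and 1 fall in T_CS versus N_CS and the same numbers in T_RT versus N_RT. With cold, 1 rose and 0 fell in N, and 0 rose and 1 fell in T. The 5 further IDs listed as low-oxygen genes gave 3 rises in T_CS versus N_CS (median 0.87), 2 of them called higher (background 2.39%). They gave 2 rises in T_RT versus N_RT (median 0.35) and 4 in T_CS versus T_RT (median 0.45). In N_CS versus N_RT there were 3 rises and 1 fall (median 0.40), the fall being called lower (background 5.84%). The medians over all tested genes were -0.051 (T_CS versus N_CS), 0.0011 (T_RT versus N_RT), 0.011 (N_CS versus N_RT) and -0.012 (T_CS versus T_RT).

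**Figure D4:**
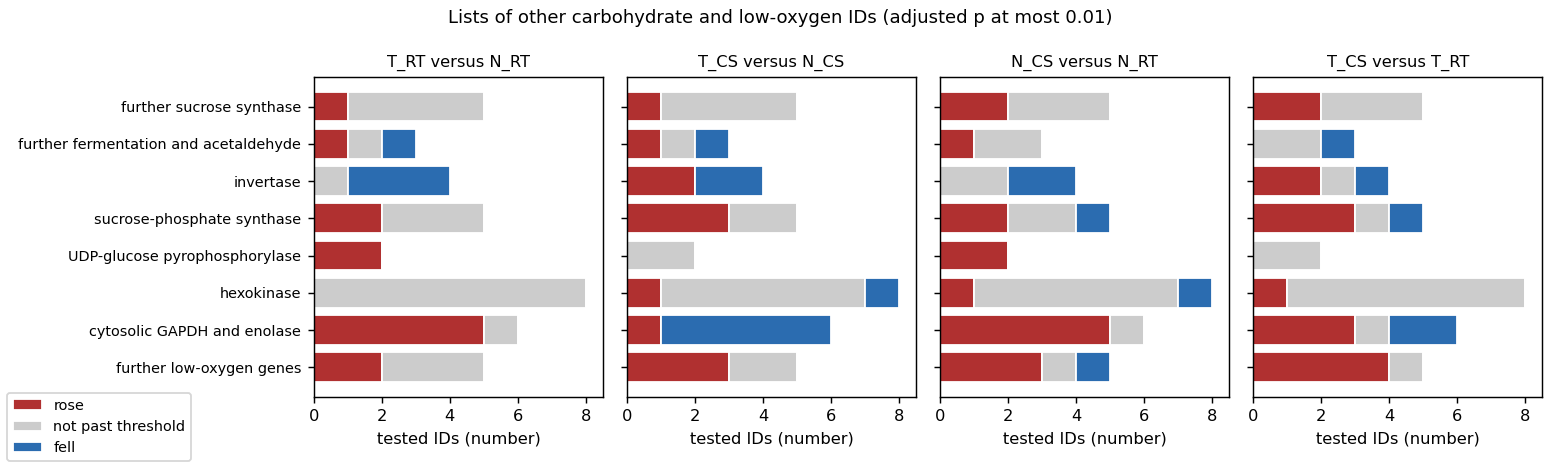
Number of tested IDs in each list of neighbouring steps that rose (red), fell (blue) or did not pass an adjusted p of 0.01 (grey) in the 4 pairwise comparisons (edgeR). In the list of glyceraldehyde-3-phosphate dehydrogenase and enolase, 5 of 6 IDs rose in T_RT versus N_RT (9.44% of all tested genes). In T_CS versus N_CS 5 of 6 fell (20.9% of all tested genes), where DESeq2 passed 2 as lower.

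Carbohydrate genes that the study names crossed the pattern of SUS1. The study listed them from these same libraries as higher in T_CS than in N_CS, so the contrast with SUS1 is not independent evidence. The trehalose-6-phosphate synthase genes Os08g0445700 (15.8, 4.87, 18.4 and 58.3 CPM in N_RT, N_CS, T_RT and T_CS) and Os08g0414700 (20.1, 7.08, 14.1 and 29.2 CPM) fell with cold in N and rose with cold in T, with differences of the cold responses of 3.34 and 2.55 on the log2 scale (adjusted p = 2.17e-31 and 1.79e-23). The alpha-amylase ID Os01g0357400 had 1 count over all 8 libraries. The study names 6 ERF genes, which it picked for being higher in T_CS than in N_CS. Of these, 6 rose in that comparison with edgeR (background 21.4%) and 5 with DESeq2. That choice fixed the outcome, so the count is not read against the background. OsERF67, OsERF118 and OsERF108 had 0, 0 and 2 counts summed over N_CS, and 48, 44 and 38 over T_CS. Only T_CS brought these genes to the minimum for a test. In T_RT versus N_RT 4 rose with edgeR (background 9.44%) and 2 with DESeq2. Over all genes DESeq2 passed 1647 as higher there, against 2665 with edgeR.

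For each member, the study-named gene with the most similar pattern was sought among 57 tested genes. The measure was the smallest mean absolute difference of centred group means over the 4 groups, on log2 CPM with 0.1 CPM added. ADH1 lay closest to OsWRKY15 (0.17), a WRKY transcription factor gene, though this gene had 30 and 7 counts in the libraries of N_RT. ADH2 lay closest to OsERF67 (0.35), an ethylene response factor gene with 2 counts summed over N_RT, 0 over N_CS, 24 over T_RT and 48 over T_CS. The N_CS value of OsERF67 was thus set by the added 0.1 CPM, and this likeness leans on it. By edgeR the log2 fold changes of OsERF67 and ADH2 were 7.81 and 3.35 in T_CS versus N_CS. In T_CS versus T_RT they were 1.32 and 0.076. The smallest distances of the other tested members were larger: 0.46 for Os05g0469800, 0.54 for SUS2, 0.71 for Os03g0293100 and 1.02 for SUS1. No limit for a close pattern was set beforehand. Most of the 57 genes were picked by the study for being higher in T_CS, so likeness to the ADH genes was easier to find than likeness to SUS1.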

How the data were processed

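Per the labels and methods, poly(A) RNA was made into strand-specific libraries (NEBNext Ultra II Directional), sequenced on Illumina as 150-base pairs, and the authors trimmed the reads, mapped them with STAR and made a table of counts per rice gene with featureCounts (1.6.4). The deposited values are counts: whole numbers with unequal totals, although the methods call them normalized. How featureCounts treated strand and multi-matching reads is not given in the sources used here. All 8 libraries entered 1 fit with a mean per group in edgeR 4.0.16 (R 4.3.3; TMM scaling; filterByExpr minimum count 10, minimum total 15), checked on simulated data. P-values were adjusted over all 28218 tested genes. Alternatives were DESeq2 1.42.0, other scalings, filters and thresholds, the 4 libraries of a comparison alone, a replicate block and leaving out each library. All members were named, plus the study's carbohydrate and ERF genes and the nearest study-named genes of ADH1 and ADH2. Members and lists were chosen with earlier results of these data known. Replicate numbers mark technical libraries: deviations of same-numbered libraries correlated at -0.0151 to 0.00913. Gene names of listed IDs and gene lengths were not used from a reference.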

Additional observations from a re-analysis of the deposited data

Results flagged for a closer look

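For 4 of the 6 tested genes the response to cold differed between T and N, by the test of the difference itself (edgeR quasi-likelihood test, adjusted over all tested genes). Of all 28218 tested genes, 17.0% were more positive in T and 15.6% more positive in N by this test, so such a difference was common. The response was more positive in T by 0.84 for ADH1 (adjusted p = 3.86e-24) and by 0.97 for ADH2 (adjusted p = 0.00248) on the log2 scale. The difference was -0.60 for the pyruvate decarboxylase gene Os03g0293100 (adjusted p = 7.42e-15) and -1.33 for SUS1 (adjusted p = 1.36e-38), so the response there was more positive in N. The ADH2 value was the least certain of the 4, since it did not pass with DESeq2 or without any of 3 libraries (replicate 1 of N_RT, of N_CS or of T_RT). With 2 libraries per group no library could be tested as an outlier.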

How the results depend on the processing

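Over 30 member values and 474 alternatives of them, 440 kept their direction and side of the threshold, 24 lost and 3 gained significance, and 7 turned sign; the causes were not tested. Total count scaling turned the N cold response of ADH1 to -0.041 and of SUS2 to -0.019, and the T cold response of ADH2 to -0.039. Leaving out 1 library at a time put the latter at -0.079 to 0.25 (-0.041 without T_CS replicate 1) and the difference of cold responses of Os05g0469800 at -0.40 to 0.20 (0.20 without N_RT replicate 1, 0.034 without T_CS replicate 1). Of members that rose in N_CS versus N_RT, 1 was left (SUS2 lost) under DESeq2, no filter, the 4 libraries alone, RLE, total counts and the replicate block, which leaves 1 (adjusted p = 0.0107 for SUS2) and changed no other member's call; without 1 library it was 1 to 2. Without 1 library, members that fell numbered 1 to 2 in N_CS versus N_RT and 1 to 2 in T_CS versus T_RT, those more positive in T 1 to 2 (1 with DESeq2), and those called in N_CS versus N_RT 0 to 1 (1 with total counts). Total counts gave 2 that fell in T_CS versus T_RT, 2 that fell in T_RT versus N_RT and 1 that rose in T_CS versus T_RT; limits of 1 and -1 called 2 in T_RT versus N_RT. Over all genes, DESeq2 gave 2703 with a cold response more positive in N (4410 in edgeR), 3799 that fell in T_CS versus N_CS (5885), and 1647 that rose (2665) and 1207 that fell (2114) in T_RT versus N_RT. That last count was 3172 at an adjusted p of 0.05, 3576 with total counts and 1327 to 2460 without 1 library, lowest without T_RT replicate 1. Genes that rose in N_CS versus N_RT (5558) were 3685 with total counts and 3686 to 5914 without 1 library, lowest without N_RT replicate 1. The nearest study-named gene was the same by Euclidean distance for 4 of 6 members. With 20 to 43 counts per library, Os05g0469800 is limited by depth.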
